A study of Mus musculus with 64 samples.

Results

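Messenger RNA levels of 10 genes that mark the fibroblast-like progenitors and stroma of fat were followed across 64 RNA-seq samples. The genes were taken from a fixed list of symbols (*Pdgfra*, *Pdgfrb*, *Dpp4*, *Pi16*, *Cd34*, *Ly6a*, *Dlk1*, *F3*, *Icam1* and *Thy1*), were matched through their Ensembl identifiers and were chosen with earlier results of these data known, though not by a threshold on their values. They are 10 of the 52636 genes in the table, and all 10 are among the 20249 that passed the filter on low counts. A brown fat depot (BAT) and the white epididymal depot (eWAT) were sampled from male wild-type (WT) and fat-specific *Nampt* knockout (FANKO) mice at zeitgeber time (ZT) 6, 10, 18 or 22, in hours after lights on, with 4 samples in each of the 16 groups. FANKO mice carry *Nampt* with exon 3 between loxP sites (*Nampt* tm1Jtree) and a Cre recombinase under the Adiponectin promoter, which acts in adipocytes. WT mice were Cre-negative littermates, and mice of both genotypes were 2 to 4 months old. Recombination is therefore directed at the fat cell and not at the progenitors that the genes mark, and whole depots were sequenced. In whole depots, a lower level through fewer cells of a type and a lower level through less RNA per cell cannot be told apart.

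Adipose tissue holds a pool of mesenchymal cells from which new adipocytes form. In current schemes, DPP4+ PI16+ interstitial cells lie nearest to the stem-like state and give rise to ICAM1+ preadipocytes, while CD142+ cells, named for the protein that *F3* encodes, have been described as restraining adipogenesis. Signals through the platelet-derived growth factor receptors, encoded by *Pdgfra* and *Pdgfrb*, keep progenitors dividing and undifferentiated, and the secreted form of *Dlk1* (preadipocyte factor) inhibits differentiation. None of the genes belongs to progenitors alone, since *Icam1* is induced by cytokines in endothelial and immune cells, *Thy1* and *Ly6a* are also T cell surface genes, *Dpp4* is the T cell antigen CD26, *Cd34* marks endothelium and *Pdgfrb* marks mural cells.

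Promoters are shown for the pair of genes with the largest changes in FANKO BAT, *Icam1* and *Dpp4*, and for *F3*, which did not pass the test there and rose in eWAT. RefSeq sequences on GRCm38.p6 were found for 7 of the 10 genes and cover 250 bases before and 50 bases after the annotated start, written 5′ to 3′ on the strand of the gene. *Icam1* lies at chr9:21015690-21015989 on the plus strand, *Dpp4* at chr2:62412182-62412481 on the minus strand and *F3* at chr3:121723287-121723586 on the plus strand. Capitals mark matches, on either strand, to 6 motifs: the E-box CACGTG bound by CLOCK and BMAL1, the kappa B site GGAANTTCC, the GAS element TTCNNNGAA bound by STAT factors, the TATA box TATAAA, the GC box GGGCGG and the CCAAT box.

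Icam1: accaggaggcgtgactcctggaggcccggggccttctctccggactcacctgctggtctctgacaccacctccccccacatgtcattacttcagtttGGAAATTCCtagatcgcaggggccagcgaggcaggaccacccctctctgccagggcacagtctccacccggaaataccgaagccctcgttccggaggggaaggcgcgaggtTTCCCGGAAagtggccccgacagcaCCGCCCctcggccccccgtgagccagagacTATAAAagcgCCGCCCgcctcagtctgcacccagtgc

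Dpp4: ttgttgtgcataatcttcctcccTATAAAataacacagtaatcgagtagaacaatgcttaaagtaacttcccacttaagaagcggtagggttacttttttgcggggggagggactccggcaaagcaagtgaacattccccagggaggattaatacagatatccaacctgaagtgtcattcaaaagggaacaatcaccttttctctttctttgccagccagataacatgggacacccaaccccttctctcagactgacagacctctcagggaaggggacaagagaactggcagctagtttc

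F3: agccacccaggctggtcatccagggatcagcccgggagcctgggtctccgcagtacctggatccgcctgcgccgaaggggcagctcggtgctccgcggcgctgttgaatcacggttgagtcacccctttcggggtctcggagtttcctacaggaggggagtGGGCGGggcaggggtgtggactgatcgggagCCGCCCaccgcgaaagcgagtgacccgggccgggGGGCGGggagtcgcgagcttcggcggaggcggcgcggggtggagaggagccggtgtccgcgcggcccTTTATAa

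The *Icam1* window held 1 kappa B match (GGAAATTCC, 153 bases before the start), 1 GAS match (TTCCCGGAA, 42 bases before it), 1 TATA box 14 bases after the start and GC boxes 17 bases before and 24 bases after it, with none of the matches overlapping another. The *Dpp4* window held 1 TATA match, 227 bases before the start, and the *F3* window held 3 GC boxes, 89, 58 and 24 bases before the start, and 1 TATA match on the minus strand 44 bases after it. No E-box match lay in the 7 windows, and the only match outside these 3 genes was a CCAAT box in *Pi16*, 64 bases before the start. Among 32851 promoter windows of the same length, the kappa B letters occurred in 0.928%, GAS in 8.3%, the E-box in 7.15%, the TATA box in 13.6%, the GC box in 35.7% and the CCAAT box in 37.4%. The G and C content was 64.7% for *Icam1*, 45.3% for *Dpp4* and 70.3% for *F3*, with 19, 4 and 32 CpG dinucleotides. These matches describe the letters of the windows and were not tested for binding. The RefSeq starts of *Icam1* and *Pdgfra* lie upstream of the start in the gene annotation used for lengths. That of *Pi16* lies downstream of it, since the *Pi16* window begins at 29318632 and the annotated gene at 29317680.

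The libraries held 6117343 to 30544847 counts (median 15826651). Mitochondrial genome transcripts took 16.8 to 40.7% of counts in WT BAT (median 24.6%) and 7.48 to 24.7% in FANKO BAT (median 14.7%). In eWAT they took 3.88 to 10.7% in WT (median 6.55%) and 6.11 to 14.6% in FANKO samples (median 10.7%). The share thus moved with genotype as well as depot. Levels are given in CPM, the count of a gene relative to the TMM-scaled size of its library. *Nampt*, the targeted gene, lay between 479 and 1454 CPM in WT BAT and between 109 and 186 in FANKO BAT, a 4.97-fold lower level (log2 fold change -2.31, SE 0.07, adjusted p = 1.1e-36, from the quasi-likelihood test of edgeR with p values adjusted by Benjamini and Hochberg's method), and was 1.41-fold lower in eWAT, where the genotypes overlapped (WT 112 to 310, FANKO 100.7 to 131). The brown adipocyte markers summed to a median of 6993 CPM in WT BAT and 20.5 in WT eWAT, so the libraries carried the markers of their labelled depots. Skeletal muscle markers reached a summed 497 CPM in 1 WT BAT library and 437 in 1 FANKO BAT library, and epididymis markers reached 48.4 in 1 FANKO eWAT library. Results were therefore also computed without the 18 libraries that exceeded 100 CPM of muscle, 10 CPM of epididymis or 30 CPM of B cell markers, an alternative chosen after the data had been seen. The removal was uneven and kept 1 of 4 samples in WT BAT at ZT 18. It kept 2 of 4 in FANKO BAT at ZT 22 and in FANKO eWAT at ZT 6, ZT 18 and ZT 22. Calls lost in that fit cannot be told apart from a loss of information.

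Per kilobase of all annotated exons of a gene merged, *Ly6a* (the Sca-1 antigen of mouse mesenchymal progenitors) stood first of the 10 in every depot and genotype. This length can exceed that of a single transcript, so the order depends on the annotation. In BAT its level per kilobase was 24.9 ± 3.12 CPM (SD, n = 16) for WT and 219 ± 55.1 for FANKO mice, and in eWAT it was 36.8 ± 4.28 and 64.4 ± 26.3. *Dlk1* stood last, at 0.209 ± 0.107 in WT BAT and 0.0387 ± 0.0402 in WT eWAT (SD, n = 16 each). Between them, the order in WT BAT on this scale was *F3* (22.6), *Pdgfrb* (11.98), *Cd34* (4.03), *Pdgfra* (3.39), *Pi16* (2.73), *Thy1* (0.981), *Icam1* (0.679) and *Dpp4* (0.449 CPM per kb), and *Pdgfrb* and *Cd34* were the only neighbours in the whole order whose ranges did not overlap. In WT eWAT the order was *Cd34* (19.4), *F3* (16.7), *Pdgfrb* (13.3), *Dpp4* (9.84), *Pdgfra* (9.67), *Pi16* (5.33), *Thy1* (3.23) and *Icam1* (2.63), where *Ly6a* stood clear of *Cd34* and *Icam1* clear of *Dlk1*, and all other neighbours overlapped. *Dpp4* thus held the ninth place in WT BAT and the fifth in WT eWAT.

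**Figure D1:**
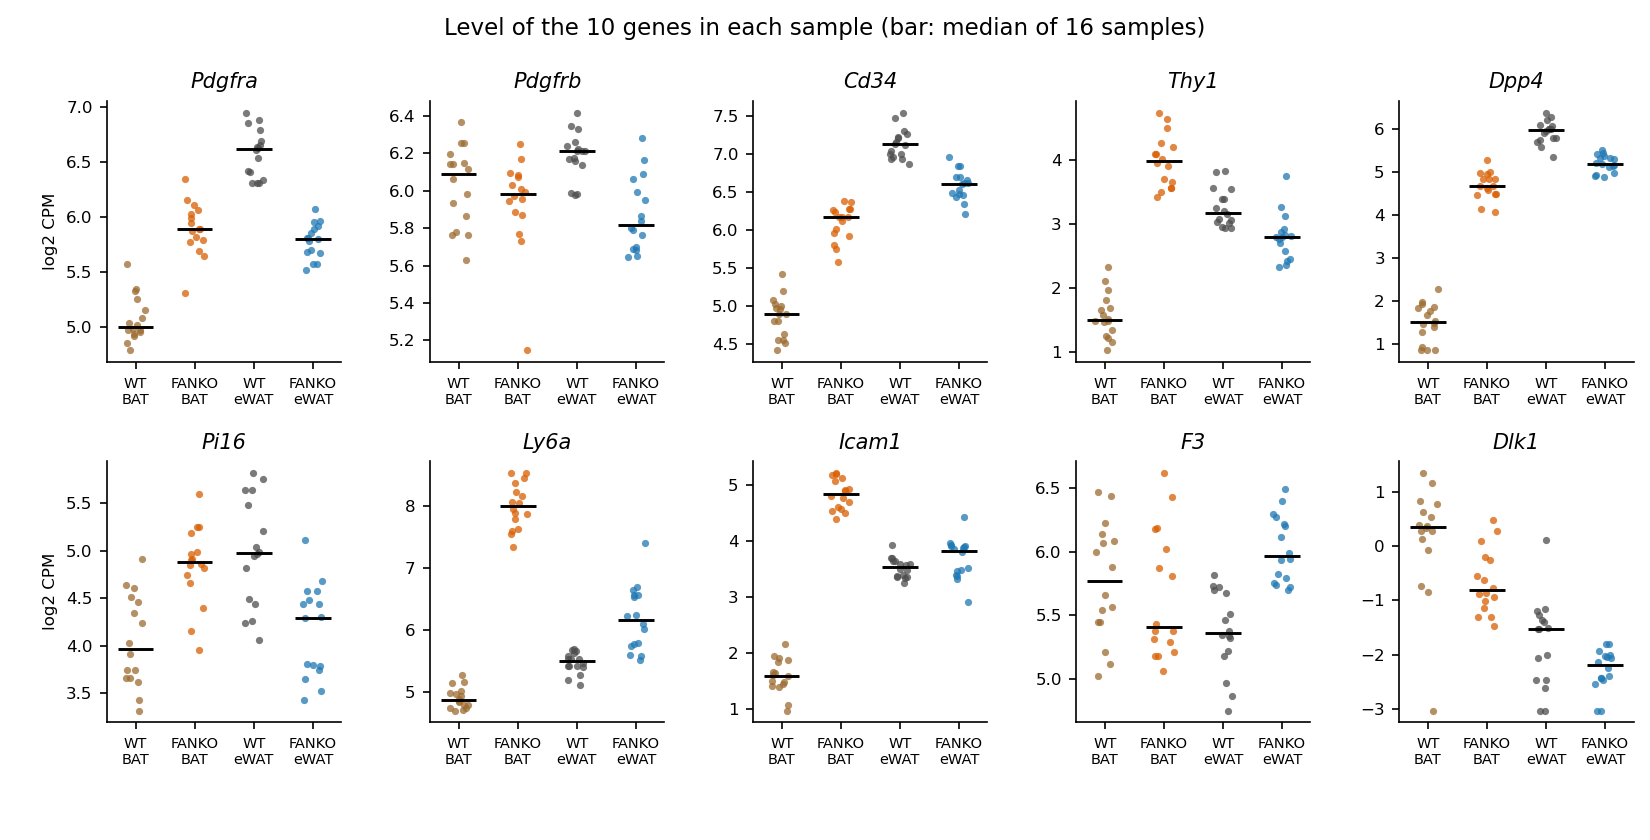
Level of each of the 10 genes in every sample, as log2 CPM after TMM scaling with a prior count of 2, with columns for WT BAT, FANKO BAT, WT eWAT and FANKO eWAT (n = 16 each), a point per sample colored by depot and genotype, and a bar at the median. In BAT the FANKO points of Icam1, Dpp4, Ly6a, Thy1 and Cd34 lie above all WT points, and in eWAT the FANKO points of Pdgfra lie below all WT points.

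The first comparison asked how the absence of adipocyte *Nampt* went with progenitor and stromal transcripts in BAT. Of the 10 genes, 7 rose and 1 fell at a false discovery rate (FDR) of 0.01, while 33.1% of all tested genes rose and 33.9% fell, with a median log2 fold change over all genes of 9.69e-05. The rises ran from 1.77-fold in *Pi16* and *Pdgfra* to 9.57-fold in *Icam1*. With scaling by library size alone, which moved the median of all genes to 0.58 and the shares to 63.1% higher and 11.2% lower, 9 of the 10 were higher and 0 lower, because *Pdgfrb* (0.51) and *F3* (0.44) then passed as higher and *Dlk1* no longer passed as lower. Relative to that median, *Pdgfrb* and *F3* stood at -0.08 and -0.14.

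*Icam1* (ENSMUSG00000037405, chromosome 9 of GRCm38, 21015985 to 21028817, plus strand), the adhesion molecule that leukocyte integrins bind and the marker of committed preadipocytes, lay between 1.84 and 4.34 CPM in the 16 WT BAT samples (median 2.90) and between 20.9 and 37.0 in FANKO BAT (median 28.6). The ranges did not overlap and the lowest FANKO sample was well above the highest WT sample. The log2 fold change was 3.26 (SE 0.10, adjusted p = 6.3e-37, edgeR). *Icam1* shares 511 exonic bases with an antisense gene on the opposite strand, which held 84 counts over all samples. Opposite-strand genes also overlap exons of *Cd34* (148 bases, 3644 counts) and *Dpp4* (232 bases, 370 counts). The same holds for *Pdgfra* (456 bases with 0 counts, and 166 bases with 115 counts) and for *Pi16* (222 bases, with a gene that was not counted).

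Among the markers of interstitial progenitors, *Dpp4* (ENSMUSG00000035000, chromosome 2, 62330073 to 62412231, minus strand), a membrane peptidase, had 1.69 to 4.75 CPM in WT BAT (median 2.75) and 16.9 to 39.0 in FANKO BAT (median 25.5). Again every FANKO sample exceeded every WT sample, and the log2 fold change was 3.21 (SE 0.11, adjusted p = 4.9e-34, edgeR), or 9.25-fold. The WT values rest on 12 to 69 counts per sample. *Pi16* (ENSMUSG00000024011, chromosome 17, 29317680 to 29330593, plus strand), named as a peptidase inhibitor, marks the same interstitial cells and changed less. It had 9.85 to 30.02 CPM in WT (median 15.6) and 15.4 to 48.4 in FANKO samples (median 29.3). Its ranges overlapped, and the log2 fold change was 0.82 (SE 0.14, adjusted p = 2.4e-07, edgeR).

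*Cd34* (ENSMUSG00000016494, chromosome 1, 194938819 to 194961279, plus strand), a sialomucin shared by progenitors and endothelium, had 21.3 to 42.7 CPM in WT BAT (median 29.6) and 47.6 to 83.2 in FANKO BAT (median 71.9), without overlap. It rose 2.35-fold (log2 1.23, SE 0.06, adjusted p = 5.2e-27, edgeR). *Ly6a* (ENSMUSG00000075602, chromosome 15, 74994877 to 74998031, minus strand) had 25.7 to 38.5 CPM in WT (median 29.1) and 163 to 372 in FANKO samples (median 256), also without overlap, and rose 8.75-fold (log2 3.13, SE 0.11, adjusted p = 7.1e-34, edgeR). *Ly6a* has close paralogues in the Ly6 cluster, and the options for reads that map to several places are not stated, so its share of such reads is uncertain. *Thy1* (ENSMUSG00000032011, chromosome 9, 44043384 to 44048579, plus strand), the CD90 glycoprotein of fibroblasts and T cells, had 1.92 to 4.89 CPM in WT (median 2.71) and 10.6 to 26.6 in FANKO samples (median 15.7), without overlap, and rose 5.48-fold (log2 2.45, SE 0.13, adjusted p = 6.5e-25, edgeR). In all, 5 of the 10 genes had every FANKO BAT sample above every WT BAT sample and 0 had every one below, against 12.5% and 10% of all tested genes.

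The receptors differed from each other. *Pdgfra* (ENSMUSG00000029231, chromosome 5, 75152292 to 75198215, plus strand), the receptor that defines most fibroblast-like progenitors, had 27.6 to 47.6 CPM in WT BAT (median 32.0) and 39.5 to 81.2 in FANKO BAT (median 59.3), and rose with overlapping ranges (log2 0.82, SE 0.07, adjusted p = 1.6e-16, edgeR). *Pdgfrb* (ENSMUSG00000024620), the receptor shared with pericytes, had 49.4 to 82.3 CPM in WT (median 67.9) and 35.4 to 75.9 in FANKO samples (median 63.1). Its difference did not pass, at log2 -0.09 with a 95% interval of -0.22 to 0.04 (adjusted p = 0.24, edgeR).

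The genes linked to restraint of adipogenesis did not share the rise. *F3* (ENSMUSG00000028128, chromosome 3, 121723537 to 121735048, plus strand), which encodes tissue factor, had 32.3 to 88.3 CPM in WT BAT (median 54.6) and 33.3 to 98.1 in FANKO BAT (median 42.2), with a log2 difference of -0.14 (95% interval -0.34 to 0.06, adjusted p = 0.22, edgeR). *Dlk1* (ENSMUSG00000040856, chromosome 12, 109452823 to 109463336, plus strand) was scarce, with 0 to 47 counts per WT BAT sample (0 to 2.43 CPM, median 1.15) and 3 to 22 counts per FANKO BAT sample (0.237 to 1.27 CPM, median 0.448), and it was the gene that fell (log2 -1.08, SE 0.27, adjusted p = 0.00039, edgeR). The fall did not pass without replicate 1 (-0.82, adjusted p = 0.025, edgeR). In the WT BAT sample without a *Dlk1* count, a floor of 3 counts corresponds to 0.423 CPM.

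**Figure D2:**
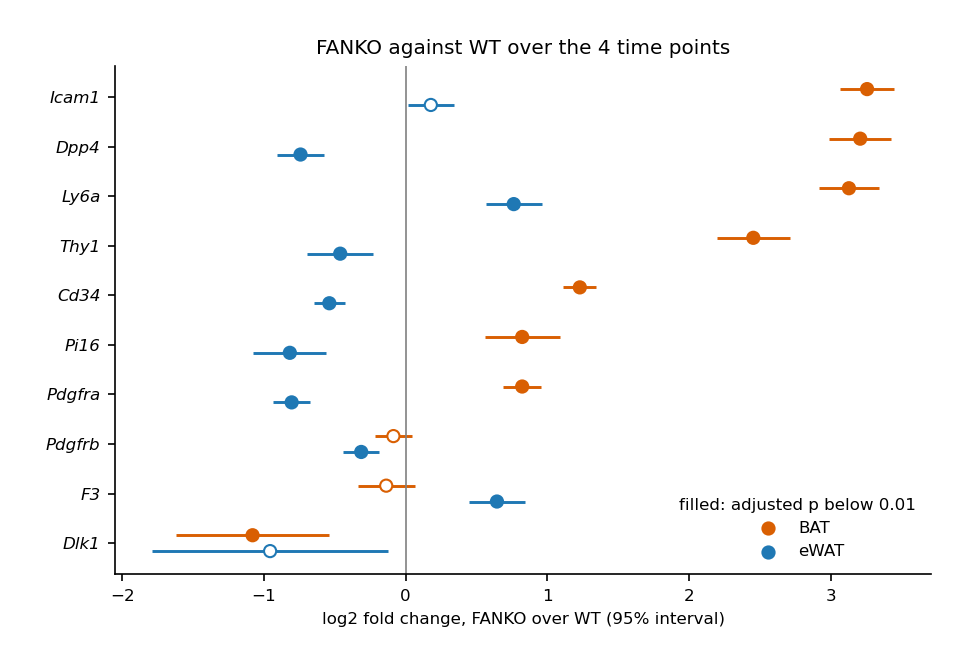
FANKO versus WT log2 fold change of each gene in BAT (orange) and in eWAT (blue) from the edgeR model over all samples, with bars at the 95% interval and filled points where the adjusted p was below 0.01. In BAT 7 filled points lie to the right of 0 and 1 (Dlk1) to the left, in eWAT 2 lie to the right and 6 to the left, and F3 is higher in eWAT (0.64) while its BAT interval includes 0.

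Genes that accompany each progenitor class were read from lists chosen with earlier results known. In FANKO BAT, 8 of 12 further genes of the DPP4+ interstitial class rose and 2 fell (median log2 0.81), with *Sema3c*, a secreted semaphorin, at 2.22 and *Creb5* at 1.92 among the rises and *Pcsk6* (-1.93) and *Limch1* (-1.10) as the falls. Of 14 general fibroblast genes 12 rose and 1 fell (median 1.3), led by the matrix genes *Mfap5* (1.66) and *Lum* (1.57), with *Gsn* falling by 0.44 on the log2 scale. The ICAM1+ preadipocyte genes other than *Icam1* split, with 3 of 10 higher and 2 lower (median -0.02), such as *Penk* at 1.87 and *Smoc2* at -1.38. Of the CD142+ genes 5 of 10 rose and 1 fell (median 0.36), the largest rise being that of *Abcg1* (2.94), a cholesterol exporter that macrophages also express, and the fall being *Adam12* (-1.52). Of 12 transcription regulators of progenitors 6 rose and 4 fell (median 0.36), with *Prrx1*, a mesenchymal homeobox factor, at 2.18 and *Ebf2*, a determinant of brown preadipocytes, at -1.70. All of these values are differences from the edgeR model at an FDR of 0.01, at which 33.1% of all tested genes rose and 33.9% fell.

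Genes that act with the members moved as follows in BAT. Among the ligands of the PDGF receptors, *Pdgfa* (0.53) and *Pdgfb* (0.22) rose, while *Pdgfc* (-0.10, adjusted p = 0.28, edgeR) and *Pdgfd* (0.09, adjusted p = 0.24, edgeR) did not pass. The integrin subunits that bind ICAM1 all rose, *Itgal* by 4.95, *Itgb2* by 4.89 and *Itgam* by 3.83 on the log2 scale. In the tissue factor pathway *F10* (4.79), *F7* (4.31), *Tfpi* (1.22) and *Tfpi2* (0.80) rose, whereas *F3* did not pass, and the first pair had few WT reads. Of 7 other Ly6 genes 6 rose, *Ly6c2* by 8.38 and *Ly6d* by 6.01, against few reads in WT BAT. Of 5 tested genes of the imprinted domain around *Dlk1*, *Begain* rose (0.68, adjusted p = 0.009, edgeR), none fell at the FDR, and the median was 0.06.

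Markers of other cells moved in the same samples. All 8 T and NK cell markers rose (median log2 5.23, *Ncr1* and *Cd3d* both 5.45), and their summed level was 1.66 to 5.80 CPM in WT BAT and 58.0 to 164 in FANKO BAT. All 8 macrophage markers rose (median 3.34, *Cd68* 4.56), with sums of 121 to 227 against 731 to 1786 CPM, as did all 4 B cell markers (0.612 to 4.90 against 7.67 to 64.8 CPM). By contrast 7 of 9 endothelial markers fell (645 to 884 against 441 to 659 CPM), 6 of 10 mural markers fell (982 to 1183 against 395 to 659 CPM), and 7 of 8 adipocyte markers fell (12035 to 15903 against 5516 to 9580 CPM). Of 6 brown adipocyte markers 4 fell, and of 5 Schwann cell markers 3 rose and 1 fell. Mesothelial markers were near absent from BAT, with 6 of 9 (*Krt18*, *Krt8*, *Msln*, *Upk1b*, *Upk3b* and *Wt1*) at a median of 0 counts in WT and sums of at most 13.6 CPM, while 1 rose and 1 fell. No muscle or epididymis marker passed. The part of immune cells in the rises of *Icam1*, *Dpp4*, *Ly6a* and *Thy1* was not tested. Over all alternatives, the removal of the 18 libraries named above among them, the 8 genes called in BAT kept their direction. Log2 fold changes ran from 3.18 to 3.86 for *Icam1*, 3.06 to 3.81 for *Dpp4* and 3.08 to 3.73 for *Ly6a*. They ran from 2.26 to 3.06 for *Thy1*, 1.19 to 1.82 for *Cd34* and 0.766 to 1.42 for *Pdgfra*. For *Pi16* they ran from 0.709 to 1.4 and for *Dlk1* from -1.26 to -0.497.

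**Figure D3:**
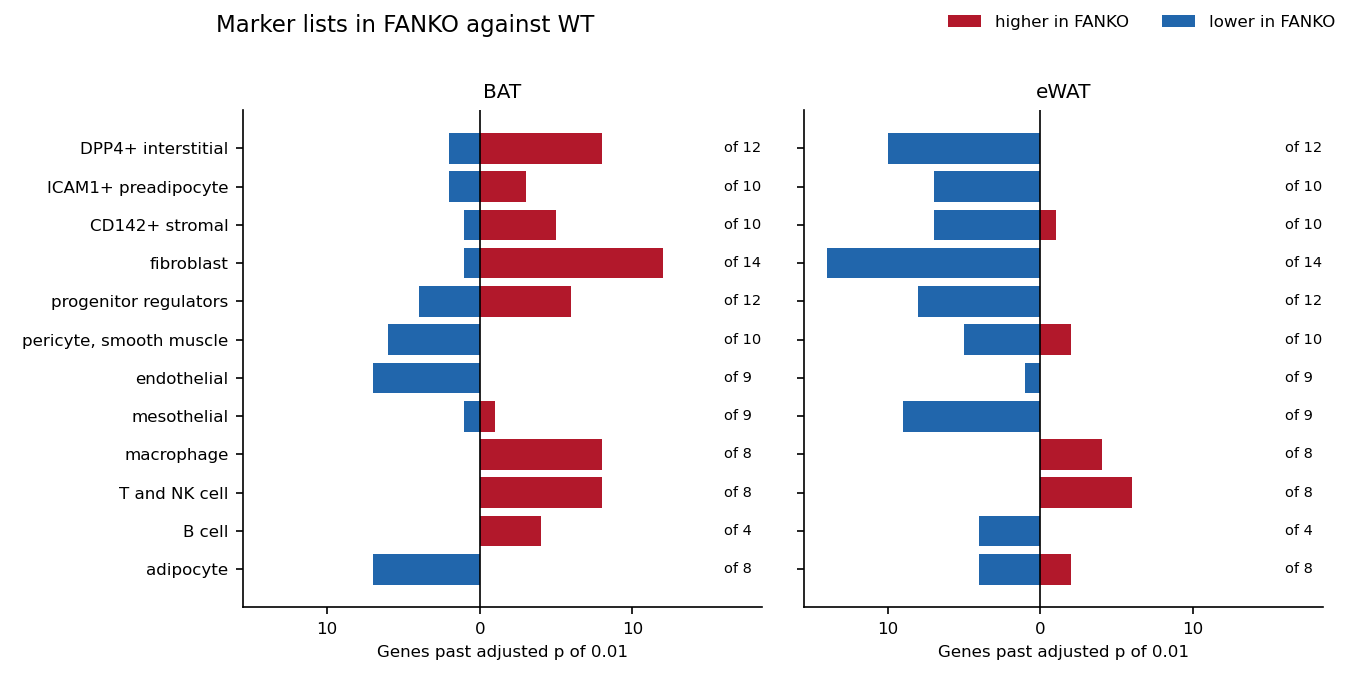
Number of genes of 12 lists that were higher (red bars, to the right) or lower (blue bars, to the left) in FANKO than in WT mice at an adjusted p below 0.01, in BAT and in eWAT, with the number of genes tested beside each pair of bars. Of the 14 general fibroblast genes 12 were higher and 1 lower in BAT, and all 14 were lower in eWAT.

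Within FANKO BAT, levels of the 10 genes were related to the summed T and NK, macrophage and fibroblast markers across the 16 samples, after subtraction of time-point means from log2 values. Both measures of a pair come from the same library, and p values are from permutation within time points, adjusted over the 30 relations. The permutation treats the samples of a time point as exchangeable. Same-numbered samples of different time points shared part of their deviations from group means (median r 0.12), which the permutation does not keep. Libraries that exceeded the marker limits were included, and the relations were not recomputed without them. *Thy1* followed the T and NK sum (Pearson r = 0.89, permutation p = 9.0e-05, adjusted 0.00135; Spearman rho = 0.89, permutation p = 0.00014, adjusted 0.0021), with r = 0.86 when the 2 samples farthest from the median of the sum were left out. It was also related to the macrophage sum (r = 0.75, permutation p = 0.00276, adjusted 0.0166; rho = 0.74, permutation p = 0.00391, adjusted 0.0195; r = 0.83 without the 2 samples) and, by Pearson's r alone, to the fibroblast sum (r = 0.72, permutation p = 0.01, adjusted 0.0334; rho = 0.60, permutation p = 0.0395, adjusted 0.091; r = 0.64). *Dpp4* followed both the T and NK sum (r = 0.80, permutation p = 0.00132, adjusted 0.0099; rho = 0.76, permutation p = 0.00309, adjusted 0.0185; r = 0.82 without the 2 samples) and the macrophage sum (r = 0.82, permutation p = 0.00044, adjusted 0.0044; rho = 0.77, permutation p = 0.00229, adjusted 0.0172; r = 0.77). *F3* ran opposite to the T and NK sum (r = -0.78, permutation p = 0.00887, adjusted 0.0333; rho = -0.85, permutation p = 0.00144, adjusted 0.0144; r = -0.67). *Pdgfra* followed the fibroblast sum (r = 0.88, permutation p = 2.0e-05, adjusted 0.0006; rho = 0.92, permutation p = 2.0e-05, adjusted 0.0006; r = 0.87). Its relation to the T and NK sum did not pass (r = 0.50, permutation p = 0.0663, adjusted 0.117; rho = 0.51, permutation p = 0.0725, adjusted 0.145; r = 0.35). *Icam1* had its strongest relation with the T and NK sum (r = 0.77, permutation p = 0.00541, adjusted 0.027; rho = 0.76, permutation p = 0.00594, adjusted 0.0255; r = 0.67). Its relation to the macrophage sum passed as well (r = 0.73, permutation p = 0.00709, adjusted 0.0304; rho = 0.73, permutation p = 0.00817, adjusted 0.0306; r = 0.64). No relation of *Ly6a* passed (T and NK sum, r = 0.47, permutation p = 0.074, adjusted 0.123; rho = 0.47, permutation p = 0.0813, adjusted 0.145; r = 0.40). By Spearman's rho alone, *Icam1* was also related to the fibroblast sum (rho = 0.69, permutation p = 0.0158, adjusted 0.0431, with r = 0.63, adjusted 0.0735). Without the 2 samples this r was 0.75, above those of *Icam1* with the T and NK and macrophage sums. *Cd34* with the fibroblast sum (rho = 0.66, permutation p = 0.0132, adjusted 0.0431) and *F3* with the macrophage sum (rho = -0.69, permutation p = 0.0152, adjusted 0.0431) likewise passed by rho alone. In all, 9 of the 30 relations had an adjusted Pearson p below 0.05, and they describe differences among FANKO BAT samples only.

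In eWAT the same question gave another pattern. There 2 of the 10 genes rose and 6 fell, while 27.6% of all tested genes rose and 22.8% fell (median log2 -0.02). Scaling by library size alone left the members at 2 higher and 6 lower, while it moved the shares of all genes to 11.8% and 42.4% and their median to -0.27. Over all alternatives, the removal of the 18 libraries among them, the 8 genes called in eWAT kept their direction. The log2 fold change stayed between -1.05 and -0.723 for *Pdgfra* and between 0.519 and 0.843 for *Ly6a*.

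Of the interstitial markers, *Dpp4* had 40.8 to 83.8 CPM in WT eWAT (median 63.1) and 29.8 to 45.9 in FANKO eWAT (median 36.6), with a small overlap, and fell by 0.74 on the log2 scale (SE 0.09, adjusted p = 5.9e-11, edgeR). *Pi16* had 16.5 to 56.3 CPM in WT (median 31.3) and 10.7 to 34.5 in FANKO samples (median 19.5) and fell by 0.82 (SE 0.13, adjusted p = 3.2e-07, edgeR). *Cd34* had 116 to 186 CPM in WT (median 139) and 73.9 to 125 in FANKO samples (median 97.2) and fell by 0.54 (SE 0.06, adjusted p = 3.1e-12, edgeR). The largest of these changes, that of *Pi16*, is 1.76-fold.

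*Pdgfra* was the only member whose eWAT samples separated completely, with 79.1 to 124 CPM in WT (median 98.2) and 45.9 to 67.3 in FANKO samples (median 55.8), and it fell by 0.80 on the log2 scale (SE 0.07, adjusted p = 7.6e-16, edgeR). Of all tested genes, 4.57% had every FANKO eWAT sample above and 1.33% every one below the WT samples. *Pdgfrb* had 62.8 to 85.2 CPM in WT (median 73.8) and 50.01 to 77.7 in FANKO samples (median 56.3) and fell by 0.31 (SE 0.07, adjusted p = 3.9e-05, edgeR). *Thy1* had 7.53 to 14.1 CPM in WT (median 8.90) and 4.92 to 13.4 in FANKO samples (median 6.84) and fell by 0.46 (SE 0.12, adjusted p = 0.00065, edgeR), a call that was lost without replicate 2 (-0.45, adjusted p = 0.0108, edgeR).

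The genes that rose were *Ly6a* and *F3*. *Ly6a* had 34.2 to 51.6 CPM in WT eWAT (median 45.0) and 45.5 to 169 in FANKO eWAT (median 71.4), and rose 1.70-fold (log2 0.76, SE 0.10, adjusted p = 2.7e-09, edgeR). *F3* had 26.8 to 56.1 CPM in WT (median 41.0) and 51.9 to 89.8 in FANKO samples (median 62.3), and rose 1.56-fold (log2 0.64, SE 0.10, adjusted p = 2.1e-07, edgeR). *Icam1* had 9.38 to 15.1 CPM in WT (median 11.5) and 7.40 to 21.5 in FANKO samples (median 14.1) and did not pass (log2 0.18, 95% interval 0.01 to 0.34, adjusted p = 0.06, edgeR). *Dlk1*, at 0 to 25 counts per WT sample (0 to 0.959 CPM) and 0 to 3 per FANKO sample (0 to 0.165 CPM), did not pass either (log2 -0.96, adjusted p = 0.047, edgeR), and 2 samples of each genotype held no count, where the floor of 3 counts lay between 0.105 and 0.357 CPM.

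Of the accompanying lists, most of those of fibroblasts and progenitors were lower in FANKO eWAT, while the integrin and Ly6 lists had more genes higher than lower. All 14 general fibroblast genes fell (median log2 -0.90, *Col3a1* and *Col1a1* both -1.14), and their summed level was 8822 to 12830 CPM in WT and 4907 to 6642 in FANKO samples. Of the DPP4+ interstitial genes 10 of 12 fell (median -0.80, *Dact2* -1.26 and *Fn1* -1.14), of the ICAM1+ preadipocyte genes 7 of 10 (median -0.65), and of the transcription regulators 8 of 12 (median -0.49, *Zfp423* -0.79 and *Zfp521* -0.73). None of these 3 lists had a gene that rose, while 27.6% of all tested genes rose and 22.8% fell. Of the CD142+ genes 7 of 10 fell, among them *Vit* (-0.97), and *Abcg1* rose (0.99). Of the PDGF ligands *Pdgfc* (-0.80) and *Pdgfd* (-0.41) fell, and of the tissue factor pathway the inhibitors *Tfpi2* (-0.76) and *Tfpi* (-0.39) fell while *F3* rose. Of the imprinted domain 4 of 5 tested genes fell (median -0.80). *Itgal* (0.63) and *Itgb2* (0.37) rose, and of the Ly6 genes *Ly6c2* (2.54) and *Ly6e* (0.61) rose and *Ly6h* fell by 0.76 on the log2 scale.

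Among markers of other cells in eWAT, 6 of 8 for T and NK cells rose (sums of 7.30 to 17.4 CPM in WT and 15.01 to 35.0 in FANKO samples), 4 of 8 for macrophages rose (723 to 1087 against 722 to 1378 CPM), and all 4 for B cells fell (5.23 to 45.8 against 4.28 to 10.2 CPM). All 9 mesothelial markers fell (247 to 580 against 196 to 290 CPM, *Krt8* -1.16). Mural markers split, 2 rising and 5 falling, 1 of 9 endothelial markers fell (*Tek*, -0.18), and of 8 adipocyte markers 2 rose and 4 fell, *Lep* by 1.70 on the log2 scale. Of the brown markers 2 rose, *Cidea* by 3.03, and 1 fell. *Acta1* rose among the 9 muscle markers, no epididymis marker passed, and *Mbp* rose among the Schwann markers. The part of mesothelial or fibroblast content in the lower member levels was not tested.

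The difference between the 2 FANKO effects was then tested itself, as the effect in BAT minus that in eWAT. It passed for 8 of the 10 genes, while 64.3% of all tested genes passed. It was 3.95 for *Dpp4* (SE 0.14, adjusted p = 5.6e-32, edgeR), 3.08 for *Icam1* (SE 0.13), 2.92 for *Thy1* (SE 0.18), 2.37 for *Ly6a* (SE 0.14), 1.77 for *Cd34* (SE 0.08), 1.64 for *Pi16* (SE 0.19) and 1.63 for *Pdgfra* (SE 0.10), all on the log2 scale. *Dpp4*, *Thy1*, *Cd34*, *Pi16* and *Pdgfra* rose in BAT and fell in eWAT, whereas *Ly6a* rose in both. For *F3* the difference was negative (-0.78, SE 0.14, adjusted p = 3.0e-06, edgeR), but under scaling by library size alone it was 0.04, where the median of all genes stood at 0.88. *Pdgfrb* did not pass (0.23, adjusted p = 0.025, edgeR) but passed with DESeq2 (0.34, adjusted p = 0.000665). In edgeR it passed with RLE factors (0.34, adjusted p = 0.00109), library size scaling (1.07, adjusted p = 2.14e-14), the block by genotype, time point and number (0.23, adjusted p = 0.00607) or without replicate 1 (0.28, adjusted p = 0.00834). *Dlk1* did not pass (-0.12, adjusted p = 0.90, edgeR). Its 95% interval of -1.56 to 1.31 rests on an SE of 0.73 derived from the difference and its F statistic. With DESeq2 the SE was 0.518, so the width of that interval is uncertain.

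In WT mice, 7 of the 10 genes were lower in BAT than in eWAT and 2 were higher, against 41.1% and 32.7% of all tested genes (median log2 -0.11, and -0.86 with 11.7% higher and 73.5% lower under library size scaling). *Dpp4* differed most, being 21.9-fold lower in BAT (log2 -4.46, SE 0.11, adjusted p = 1.8e-41, edgeR). *Cd34* was 4.81-fold, *Icam1* 3.82-fold, *Thy1* 3.26-fold, *Pdgfra* 2.85-fold, *Pi16* 1.97-fold and *Ly6a* 1.49-fold lower. *Dlk1* was 6.30-fold higher in BAT (log2 2.65, SE 0.31, adjusted p = 1.9e-11, edgeR). *F3* was higher (0.42, adjusted p = 0.00018, edgeR), but not without replicate 4 (0.27, adjusted p = 0.0184, edgeR), and it was lower under library size scaling (-0.32). *Pdgfrb* did not pass (-0.16, adjusted p = 0.025, edgeR). It passed as lower in BAT with DESeq2 (-0.19, adjusted p = 0.00688). In edgeR it passed with RLE factors (-0.19, adjusted p = 0.00803), library size scaling (-0.91, adjusted p = 9.05e-18), the block by genotype, time point and number (-0.17, adjusted p = 0.00452) or without replicate 3 (-0.23, adjusted p = 0.00664). All 14 fibroblast genes and 10 of 12 interstitial genes were also lower in WT BAT, with a summed fibroblast level of 1409 to 2570 CPM against 8822 to 12830 in eWAT.

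In FANKO mice, in contrast, 5 of the 10 genes were higher in BAT and 3 lower, against 28.1% and 31.6% of all tested genes. *Ly6a* was 3.47-fold, *Thy1* 2.31-fold, *Icam1* 2.22-fold, *Pi16* 1.59-fold and *Dlk1* 5.78-fold higher in BAT, and the first 4 of these had been lower in BAT in WT mice. *Dpp4* stayed lower in BAT, but by 1.42-fold (log2 -0.50, SE 0.09, adjusted p = 1.0e-06, edgeR), and *Cd34* by 1.41-fold. *F3* was lower by 0.36 on the log2 scale (adjusted p = 0.00164, edgeR), and this call was lost under 6 alternatives, among them the removal of replicate 1 (-0.32) or replicate 3 (-0.29) and of the 18 libraries (-0.24). *Pdgfra* (0.12, 95% interval -0.02 to 0.25) and *Pdgfrb* (0.07, 95% interval -0.06 to 0.20) did not pass. *Pdgfra* passed as higher in BAT with DESeq2 (0.20, adjusted p = 0.00826) and with RLE factors in edgeR (0.20, adjusted p = 0.00944). These comparisons share samples with the genotype comparisons and are not independent of them.

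Time of day was tested as a rhythm of 24-h period fitted to the 4 time points of each depot and genotype. In WT BAT, *Cd34* and *Pi16* passed at an FDR of 0.01, while 13.9% of all tested genes passed. *Pi16* had 10.6 to 14.9 CPM at ZT 6, 9.85 to 13.3 at ZT 10, 16.2 to 30.02 at ZT 18 and 18.8 to 24.8 at ZT 22. Every dark-phase sample thus exceeded every light-phase sample, and the highest mean was 1.89-fold the lowest (adjusted p = 0.00337, edgeR). At ZT 18, its peak, 3 of the 4 libraries were among the 18 that exceeded the marker limits. With each replicate number left out in turn, 1 gene passed in WT BAT. *Cd34* was highest at ZT 22 and lowest at ZT 10, with a ratio of 1.41 (adjusted p = 0.00155, edgeR). Its samples at ZT 18 (27.9 to 36.6 CPM) and ZT 22 (29.7 to 42.7) all lay above those at ZT 10 (21.3 to 27.88). Those at ZT 6 (22.8 to 31.2) overlapped with each of the other times. Both also passed in WT eWAT, where 9.38% of all genes did: *Pi16* peaked at ZT 22 (36.7 to 56.3 CPM) with its lowest mean at ZT 10 (16.5 to 30.6 CPM, ratio 2.13, adjusted p = 0.00523, edgeR), and *Cd34* ran from a low at ZT 18 to a high at ZT 22 (ratio 1.32, adjusted p = 0.00883, edgeR).

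In FANKO BAT the member that passed was *F3*, against 2.84% of all genes. Its FANKO BAT samples held 41.4 to 98.1 CPM at ZT 6, 58.3 to 72.7 at ZT 10, 33.3 to 43.0 at ZT 18 and 36.2 to 41.5 at ZT 22, so the ZT 10 samples lay above all dark-phase samples (ratio 1.79, adjusted p = 0.000242, edgeR). In WT BAT *F3* also had its lowest mean at ZT 18 (ratio 1.63) but missed the threshold (adjusted p = 0.0129, edgeR). In FANKO eWAT *Ly6a* and *Icam1* passed, against 6.77% of all genes. *Ly6a* had 64.7 to 169 CPM at ZT 6, 48.1 to 100 at ZT 10, 45.5 to 54.6 at ZT 18 and 54.8 to 103 at ZT 22 (ratio 1.87, adjusted p = 0.00119, edgeR), and *Icam1* likewise had its highest mean at ZT 6 and its lowest at ZT 18, where 7.40 to 10.97 CPM were counted (ratio 1.59, adjusted p = 0.00814, edgeR). Neither *Ly6a* nor *Icam1* passed in FANKO eWAT without the 18 libraries, where 2 of 4 samples were left at ZT 6, ZT 18 and ZT 22.

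The difference of rhythm between genotypes was tested directly and passed for 0 of the 10 genes in BAT and 0 in eWAT, against 2.76% and 1.15% of all genes by edgeR. At an unadjusted edgeR p below 0.05 there were 3 of the 10 in BAT (*Dpp4*, *Pdgfrb* and *Pdgfra*) and 2 in eWAT (*Ly6a* and *Dlk1*). Of the 20249 tested genes, 3891 in BAT and 3154 in eWAT lay below the same unadjusted p. DESeq2, limma-voom and the other scalings gave 0 calls of members at the FDR as well. A rhythm called in 1 genotype and not in the other is therefore not shown to differ between them. Of the 7 rhythm calls, that of *F3* in FANKO BAT held under 16 of 17 alternatives at the same FDR, those of *Ly6a* in FANKO eWAT and *Cd34* in WT BAT under 14 and 13, those of *Pi16* in WT eWAT and WT BAT under 12 and 10, and those of *Icam1* in FANKO eWAT and *Cd34* in WT eWAT under 9 and 7.

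**Figure D4:**
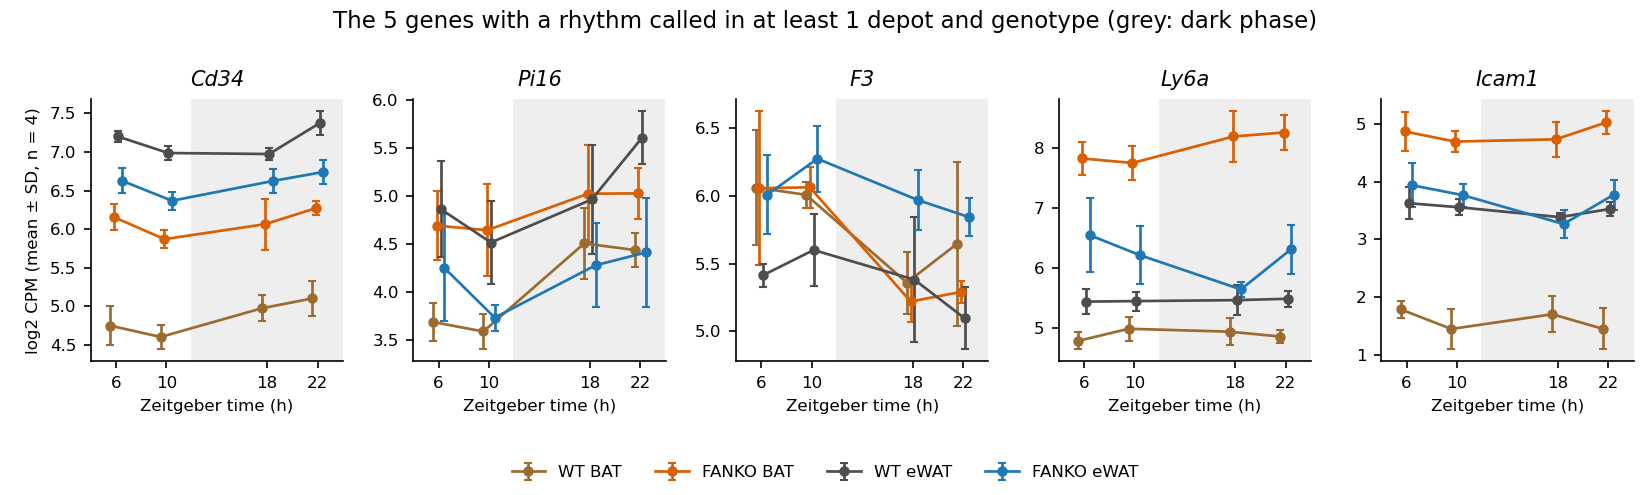
Log2 CPM (mean ± SD, n = 4) at ZT 6, 10, 18 and 22 h in each depot and genotype for Cd34, Pi16, F3, Ly6a and Icam1, the 5 genes with a rhythm called in at least 1 depot and genotype, with the dark phase in grey. The BAT lines of the genotypes lie apart at every time point for Icam1 and Ly6a, and Pi16 in WT BAT is higher in the dark phase (16.2 to 30.02 CPM at ZT 18).

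At single time points the BAT differences recurred through the day. FANKO and WT BAT differed in 7 of the 10 genes at ZT 6 (48.2% of all tested genes), 7 at ZT 10 (45.7%), 6 at ZT 18 (44%) and 6 at ZT 22 (45.3%), and every one of these 26 calls was a higher level in FANKO mice. *Dpp4* ranged from 2.75 at ZT 18 to 3.57 at ZT 10, *Icam1* from 3.09 at ZT 18 to 3.57 at ZT 22, *Ly6a* from 2.77 at ZT 10 to 3.41 at ZT 22 and *Thy1* from 2.07 at ZT 18 to 2.83 at ZT 6, all as log2 differences. *Pi16* passed at ZT 6 (1.02) and ZT 10 (1.12) and not at ZT 18 (0.55, adjusted p = 0.076, edgeR) or ZT 22 (0.60, adjusted p = 0.055, edgeR). *Pdgfrb* was lowest relative to WT at ZT 18 (-0.38, adjusted p = 0.0119, edgeR).

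In eWAT 5 genes differed at ZT 6 (27% of all tested genes), 6 at ZT 10 (24.5%), 2 at ZT 18 (13.6%) and 7 at ZT 22 (20.6%). *Pdgfra* (-0.89, -0.80, -0.78 and -0.75) and *Dpp4* (-0.60, -0.80, -0.72 and -0.85) were lower at all 4 times, in the order ZT 6, ZT 10, ZT 18 and ZT 22. *Ly6a* was higher at ZT 6 (1.2), ZT 10 (0.81) and ZT 22 (0.87), and at ZT 18 its difference was 0.17 (adjusted p = 0.60, edgeR). *F3* passed at ZT 10 (0.67) and ZT 22 (0.74), and *Thy1* at ZT 22 alone (-0.90). Of these 20 calls in eWAT 5 were higher and 15 lower. Fewer passed without the 18 libraries, a fit with fewer samples and less information.

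**Figure D5:**
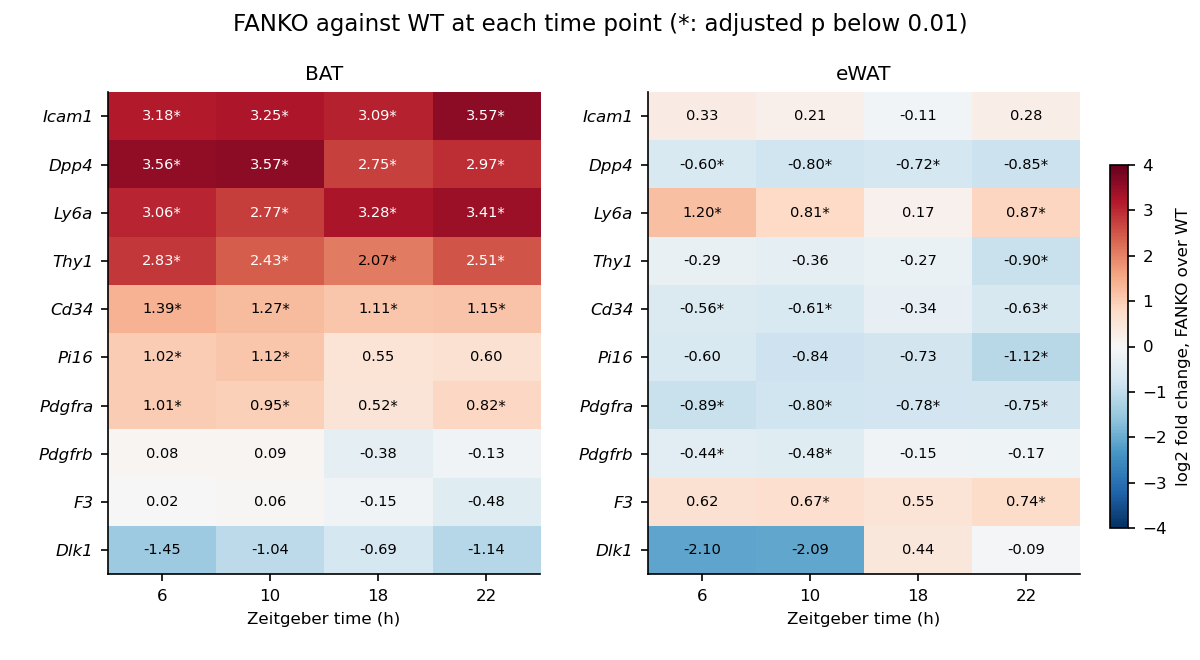
FANKO versus WT log2 difference of each gene at each time point in BAT and eWAT, as a color scale with the value printed in each cell and an asterisk where the adjusted p was below 0.01. The BAT cells of Icam1, Dpp4, Ly6a and Thy1 lie between 2.07 and 3.57, and the eWAT cells of Pdgfra lie between -0.89 and -0.75.

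Over the 16 group means of log2 CPM, the genes outside the list whose pattern was most like that of each member were found among all tested genes with a mean log2 CPM of at least 1. *Icam1* was most like *Zc3h12d*, *Rassf5* and *Rac2* (Pearson r of 0.998, 0.997 and 0.997), *Dpp4* like *C1ra*, *Hacd4* and *Maf* (0.997, 0.996 and 0.995), *Ly6a* like *H2-T22*, *Rnf213* and *Gvin1* (0.995 each) and *Cd34* like *Serpinb1a*, *Thbs3* and *Fn1* (0.990, 0.989 and 0.989). *Thy1* was most like *Il27ra* (0.986), *Pdgfra* like *Nav1* (0.982) and *Dlk1* like *Med12* (0.967). The closest patterns were less alike for *Pdgfrb* (*Dock6*, 0.923), *Pi16* (*Thada*, 0.901) and *F3* (*Zfp655*, 0.889). Among the members, *Dpp4* and *Cd34* (0.973), *Icam1* and *Thy1* (0.956) and *Pdgfra* and *Cd34* (0.930) had the most similar group means, and *Cd34* and *Dlk1* (-0.82) and *Pi16* and *F3* (-0.81) the most opposite. These are descriptions over 16 points that share depot and genotype, and no test was made of them.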

How the data were processed

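The authors sequenced ribosomal RNA-depleted, stranded total RNA libraries as 38-bp read pairs, aligned them with STAR 2.5.3a to GRCm38.p5 and GENCODE annotation, and deposited whole-number counts per gene from featureCounts 1.5.3 for 64 samples, not normalized or pooled. The strand and multi-mapping options are not given in the sources used here. The submitters' notes also name FastQC 0.11.5 and MultiQC 1.2. Groups of 4 samples came from the labels of depot, genotype and time point, and nothing says that samples came from separate extractions, so p values measure the spread between these samples.

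Counts were analysed with edgeR 4.0.16 in R 4.3.3. filterByExpr on the 16 groups (minimum count 10, minimum total 15) kept 20249 of 52636 genes, TMM scaled the libraries, and a quasi-likelihood model gave each depot and genotype a mean and a cosine and sine of 24-h period. Single time points were tested on group means in a second model. Adjustment of p values followed Benjamini and Hochberg across the genes tested, with calls at an FDR of 0.01. Each SE of an edgeR value is the absolute log2 fold change divided by the square root of its F statistic. Intervals of 95% are normal intervals from that SE and cover these samples only. Log2 CPM used a prior count of 2. DESeq2 1.42.0, limma 3.58.1 (voom), other scalings, filters, covariates for muscle and epididymis markers, replicate blocks and the removal of each replicate number were alternatives. Relations between samples used 100000 permutations in numpy 2.4.6, and figures used matplotlib 3.10.9. Symbols, coordinates and exonic length came from GENCODE M21 (GRCm38), in which 52403 identifiers had a symbol, and promoters came from RefSeq. The model was also run on simulated counts drawn independently from its own fit, which cannot show a dependence between the real samples. No 2 libraries of the same group were duplicates, the lowest chi-square per degree of freedom between replicates being 6.17. Libraries of different groups were not compared in this way.

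The members and lists were chosen with earlier results of these data known. All members are named. From every other list at most 2 genes per direction and comparison are named, those with the largest absolute log2 fold change at the FDR, or any gene for lists of 4 or fewer, and for each member up to 3 genes with the most similar group means.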

Additional observations from a re-analysis of the deposited data

Results flagged for a closer look

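In 11 of the 160 sets of 4 samples (10 genes in 16 groups) 1 sample lay apart from the other samples of its group by Dixon's criterion at the 95% level, which chance alone gives in about 1 of 20 sets. In BAT these were *Cd34* in FANKO mice at ZT 18 (47.6 CPM in replicate 1, the others 72.1 to 77.4), *Pi16* in FANKO mice at ZT 6 (17.7 in replicate 1, the others 27.99 to 30.1), *Dpp4* in WT mice at ZT 10 (3.47 in replicate 3, the others 1.69 to 1.79), *Thy1* in WT mice at ZT 10 (3.39 in replicate 3, the others 2.10 to 2.26) and *Pdgfra* in WT mice at ZT 22 (40.5 in replicate 4, the others 31.3 to 31.6). The *Dpp4* and *Thy1* values belong to the same library. In eWAT they were *Cd34* in WT mice at ZT 10 (139 CPM in replicate 4, the others 122 to 124), *Icam1* at ZT 22 in WT mice (10.1 in replicate 3, the others 11.8 to 11.95) and in FANKO mice (10.3 in replicate 4, the others 14.6 to 15.1), *Pdgfrb* in FANKO mice at ZT 10 (66.6 in replicate 1, the others 50.01 to 51.4), *Pi16* in FANKO mice at ZT 10 (11.4 in replicate 1, the others 13.7 to 13.9) and *Thy1* in FANKO mice at ZT 6 (9.48 in replicate 3, the others 6.68 to 6.90).

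The FANKO effect differed between BAT and eWAT, by the test of that difference in the edgeR model at an FDR of 0.01, for *Dpp4* (3.95 on the log2 scale), *Icam1* (3.08), *Thy1* (2.92), *Ly6a* (2.37), *Cd34* (1.77), *Pi16* (1.64), *Pdgfra* (1.63) and *F3* (-0.78).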

How the results depend on the processing

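Of 232 recomputed counts of member calls, 202 stayed within 1.5 times the main count, and of 900 recomputed single-gene values 864 kept both direction and call. Rhythm calls moved most. In WT BAT 1 gene passed with limma-voom, library size scaling, a separate fit per depot, time as a factor, or without the 18 libraries, against 2 in the model reported. In WT eWAT 1 passed with RLE factors, library size scaling, no filter, separate fits or marker covariates, and 0 with time as a factor. In FANKO eWAT 1 passed with library size scaling, no filter, time as a factor or marker covariates, and 0 without the 18 libraries. Fewer single-time calls in eWAT passed without the 18 libraries than the 20 of the model reported. Leaving out each replicate number gave 7 to 8 calls in BAT, 7 to 8 in eWAT, 8 to 10 between WT depots, 7 to 8 between FANKO depots, 8 to 9 for the difference of effects, 1 to 1, 0 to 1, 0 to 1 and 0 to 2 for rhythms in WT BAT, FANKO BAT, WT eWAT and FANKO eWAT, 0 to 0 for both differences of rhythm, and 25 to 27 and 13 to 16 for single time points in BAT and eWAT. With fewer samples each such fit, like the fit without the 18 libraries, has less information, and no other cause was tested.

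Values that changed sign under library size scaling were *Pdgfrb* in BAT (0.51), *F3* in BAT (0.44), *Icam1* in eWAT (-0.0712), *F3* between WT depots (-0.32) and the differences of effect of *Dlk1* (0.71) and *F3* (0.044). *Pdgfrb* between FANKO depots became -0.0306 with marker covariates, and the uncalled difference of effect of *Dlk1* became 0.0281 with DESeq2 and 0.187 without the 18 libraries, and ran from -0.979 (without replicate 2) to 0.297 (without replicate 1) with each replicate number left out. The cause was not tested.

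The labels do not say whether an equal replicate number marks the same animal, and the numbers were not treated as pairs, since not every pair correlated above 0.1. These correlations are of deviations from the group means, over tested genes with a mean log2 CPM of at least 1. Deviations of same-numbered BAT and eWAT samples of a genotype and time point had a median r of 0.12 (above 0.1 in 18 of 32 pairs), against -0.03 for other numbers. Deviations within a group sum to 0, so the values for equal and other numbers are not independent. The median was 0.14 for same-numbered WT and FANKO samples of a depot and time point, against -0.04 for other numbers. It was 0.12 for same-numbered time points of a depot and genotype, against -0.03. Samples of different genotype cannot come from the same animal, so the number can mark something shared that the labels do not name. The main model has no block and treats all samples as independent. With the number as a replicate block the counts of calls were 8 in BAT, 8 in eWAT, 9 and 8 between depots and 8 for the difference of effects, as in the fit without it. With genotype, time point and number as the block, *Pdgfrb* was also called between WT depots (-0.17, adjusted p = 0.00452, edgeR) and for the difference of effects (0.23, adjusted p = 0.00607, edgeR). Low counts limit *Dlk1*, which had at most 25 counts in any eWAT sample.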
